A study of Sus scrofa with 4 samples.

Results

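miR-21 is a small RNA of most animal tissues and one of the most abundant miRNAs of cultured mesenchymal cells. Its single pig hairpin, mir-21, was followed through 4 small RNA libraries. The hairpin was chosen by its read level in these same libraries and is 1 of 189 miRNAs with a read in any of them, so its abundance is described here and not tested. Vascular stem cells of pigs had been grown to passage 1, and each group held 1 library. SVSC MDI and SVSC came from subcutaneous fat. IVSC MDI and IVSC came from the longissimus dorsi, a muscle of the back, although the cell type label of all 4 calls them adipose derived. MDI is an adipogenic cocktail of 0.5 mM IBMX, 0.25 µM dexamethasone and 5 mg/l insulin, given to cells 2 days after they had become confluent. IBMX blocks the breakdown of cyclic nucleotides and dexamethasone is a glucocorticoid. Both were taken away after 3 days, growth medium came back on day 6, and the cells were left for 3 or 4 days more. SVSC and IVSC are the undifferentiated cells. All cells were grown in 20% serum, and IVSC were seeded more densely than SVSC. The labels do not say which animals or how many gave the cells, nor which of the 2 harvest times applies to which library.

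A miRNA is cut from its hairpin by Drosha and then by Dicer, and the arm that is loaded into Argonaute pairs with messenger RNAs through the bases near its 5′ end. miR-21 is known for high levels in proliferating, stressed and fibrotic tissue. Its known targets include PDCD4, which restrains growth, and it is transcribed under AP-1 and STAT3. SMAD proteins, the mediators of TGF-β, speed its cleavage by Drosha in human smooth muscle cells, and in human adipose stem cells miR-21 was reported to favour adipocyte formation through the TGF-β receptor TGFBR2. The ends of a mature miRNA are not fixed. Bases can be left on, trimmed or added, mostly at the 3′ end, and the resulting molecules are called isoforms. In human cells a slightly longer form at the 3′ end is a frequent isoform of miR-21. In the RefSeq gene table of the pig (Sscrofa11.1) MIR21 lies between the protein-coding genes PTRH2 and TUBD1. Genes that overlap MIR21 are not named here.

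The deposited files split the reads of a hairpin into kinds. Exact mature reads match the annotated mature miRNA over its full length, and the other mature reads are called variants here. They may differ in length, in their ends or by mismatches, and the files do not say which. The remaining reads lie on the star strand or on the rest of the hairpin. Abundance is given as CPM, the reads of a miRNA per 1000000 miRNA reads of its library. Ranges in parentheses are 95% intervals for counting error alone, exact for shares and for ratios between libraries. Those of differences of shares, odds and ratios of ratios are approximate. All of them treat reads as independent molecules, which PCR copies are not. A difference between libraries was called where it reached 2-fold in either direction and 1 lay outside the interval of the ratio. With 1 library in each group there is no spread between replicates and no p-value.

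The libraries held 2573249 miRNA reads in SVSC MDI, 17937121 in SVSC, 14810112 in IVSC MDI and 13252168 in IVSC. These were 49.8% of all reads counted in SVSC MDI, 69.7% in SVSC, 71.4% in IVSC MDI and 61.4% in IVSC, so SVSC MDI was both the shallowest library and the one with the lowest miRNA share. All 5 perivascular and mesenchymal miRNAs of the marker list were detected in each library, with a sum of 262057 to 409082 CPM that is mostly miR-143. The skeletal muscle list summed to 888 CPM in SVSC MDI, 1853 in SVSC, 1137 in IVSC MDI and 6275 in IVSC. The endothelial miR-126 had 52.6 to 134 CPM, the liver miR-122 had 1.94 to 24.1 CPM, and 2 of 3 blood cell miRNAs summed to 7.97 to 34.9 CPM, with miR-223 at 0. Of 5 epithelial miRNAs, miR-200a, miR-200b, miR-200c and miR-141 were at 0 in every library, and miR-205 had 0.151 to 3.50 CPM. Of 2 neuronal ones miR-124 was at 0 in every library, and miR-9 had 12.7 CPM in IVSC to 77.3 CPM in SVSC MDI. Whether a different mix of cells took part in the differences below was not tested, and in bulk RNA fewer cells of a type and less RNA per cell cannot be told apart.

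miR-21 had 676459 reads in SVSC MDI, 7906987 in SVSC, 4977406 in IVSC MDI and 3920401 in IVSC. It took 26.3% of the miRNA reads in SVSC MDI, 44.1% in SVSC, 33.6% in IVSC MDI and 29.6% in IVSC. The SVSC library stood highest and the SVSC MDI library lowest, with both IVSC libraries between them. The 4 shares are far apart relative to counting error, whose intervals were narrower than the last digit printed for all but SVSC MDI (26.2% to 26.3%). The shares of the MDI libraries and of the undifferentiated libraries overlap, so no level of miR-21 sets MDI apart in both cultures.

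Whether miR-21 is the most abundant miRNA depends on which reads are counted. Over the 4 libraries together miR-21 had 17481253 reads and miR-143 had 15974091. By the mean of the 4 shares miR-21 came second, at 33.4% beside 34.6% for miR-143, because the deepest library is also the one richest in miR-21. Library by library miR-21 ranked first in SVSC and second, behind miR-143, in SVSC MDI, IVSC MDI and IVSC. On mature reads alone it was first in all 4. It held 45.4% of the mature reads in SVSC MDI, 61.5% in SVSC, 57.0% in IVSC MDI and 47.9% in IVSC, and miR-378, second in each, held 15.4% in SVSC MDI, 9.16% in SVSC, 10.9% in IVSC MDI and 21.2% in IVSC. The difference lies in miR-143, for which the files list only 528 mature reads in SVSC MDI, 3348 in SVSC, 2334 in IVSC MDI and 2045 in IVSC, with the others assigned to the rest of its hairpin.

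The total of miR-21 differed by less than 2-fold with MDI in both cultures when scaled to miRNA reads, and in opposite directions. In IVSC it stood at 336082 CPM with MDI and 295831 CPM without, a ratio of 1.14 (1.13 to 1.14). That is short of 2-fold, while 40.1% of 152 miRNAs compared were called in this pair, 25 higher and 36 lower (32 and 21 when scaled to all reads of the file). In SVSC it stood at 262881 CPM with MDI and 440817 CPM without, a ratio of 0.596 (0.595 to 0.598). This is again short of 2-fold, in a pair where 56.2% of 146 miRNAs were called, 50 higher and 32 lower (36 and 45 with TMM). The ratio of the MDI responses, SVSC over IVSC, was 0.525 (0.523 to 0.526). The SVSC value depends on the scaling. Over all reads of the file the SVSC ratio was 0.426, over miRNA reads without miR-21 it was 0.452, with TMM 0.420 and with DESeq2 size factors 0.444, all of them past 2-fold lower. Over miRNA reads without both miR-21 and miR-143 it was 0.522, short of 2-fold. On mature reads over all mature reads the SVSC ratio was weaker, at 0.738, and the ratio of the responses was 0.621.

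Mature reads behind the total split differently in the MDI libraries. Exact mature reads numbered 338116 in SVSC MDI, 1110103 in SVSC, 1678631 in IVSC MDI and 734972 in IVSC. Variant mature reads numbered 334709 in SVSC MDI, 6750204 in SVSC, 3270776 in IVSC MDI and 3167352 in IVSC. Exact reads thus made up 50.3% of the mature miR-21 reads in SVSC MDI (50.1% to 50.4%) and 14.1% in SVSC (14.1% to 14.1%). They made up 33.9% in IVSC MDI (33.9% to 34.0%) and 18.8% in IVSC (18.8% to 18.9%). Both MDI libraries lie above both undifferentiated libraries, and SVSC MDI alone has as many exact as variant reads. Being a share within 1 miRNA of 1 library, this measure needs no scaling total.

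**Figure D1:**
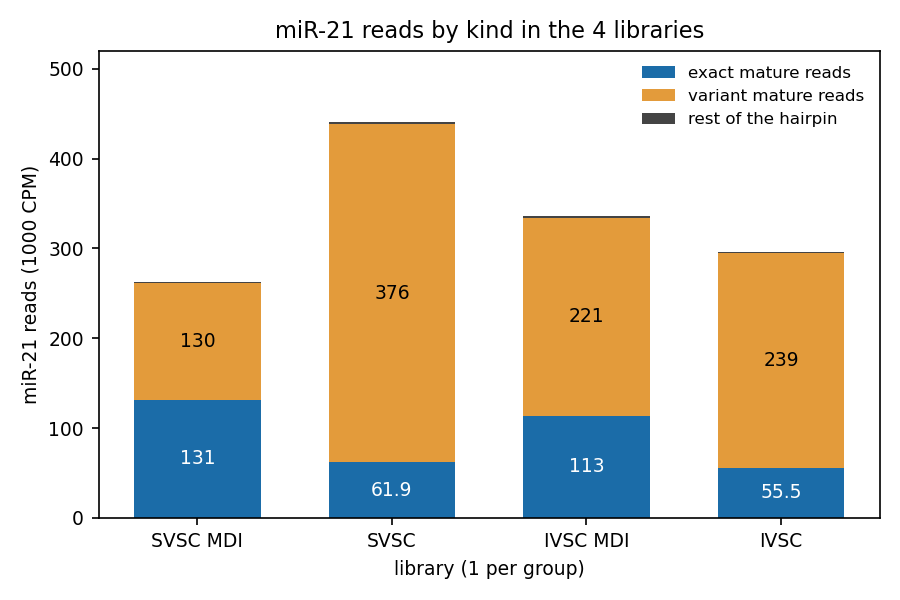
Stacked bars give the miR-21 reads of each library in units of 1000 CPM (vertical axis), split into exact mature reads (blue), variant mature reads (orange) and the rest of the hairpin (dark, a thin band at the top). The exact part is 131397 CPM in SVSC MDI and 61889 in SVSC, and 113344 CPM in IVSC MDI and 55461 in IVSC, while the variant part is largest in SVSC.

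The exact share of miR-21 was 36.1 percentage points higher in SVSC MDI than in SVSC (36.0 to 36.3). It was 15.1 points higher in IVSC MDI than in IVSC (15.0 to 15.1). As odds of an exact against a variant read, the ratio was 6.14 (6.11 to 6.17) in SVSC and 2.21 (2.20 to 2.22) in IVSC. Among 53 miRNAs with at least 1000 mature reads in every library, miR-21 had the largest gain of all in IVSC and the second largest in SVSC, after miR-10a. In SVSC 30.2% of the 53 moved by at least 10 points in either direction, 6 up and 10 down. In IVSC 11.3% did, 4 up and 2 down. Only miR-21 and miR-151 of the 53 gained at least 10 points in both cultures, and miR-151 did so by 13.7 points in SVSC and 10.1 in IVSC.

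The other miRNAs of the same libraries moved in both directions. Across the 52 others the median change of the exact share was -1.48 points in SVSC and -0.81 points in IVSC, with 22 of them up and 30 down in SVSC and 21 up and 31 down in IVSC. Pooled over all other miRNAs, exact reads made up 72.3% of mature reads in SVSC MDI and 77.0% in SVSC, and 70.2% in IVSC MDI and 79.1% in IVSC. The pooled share of the others is thus lower in both MDI libraries. The median share of the 52 others with at least 1000 mature reads in every library is higher in both MDI libraries. It was 67.0% in SVSC MDI and 62.5% in SVSC, and 62.9% in IVSC MDI and 57.5% in IVSC. These summaries differ in direction, and the pooled share also takes in miRNAs with fewer reads. The 2 MDI files carry an added number after the word for trimming in their names, which the 2 undifferentiated files lack. A separate trimming run and the MDI state cannot be told apart in the design.

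**Figure D2:**
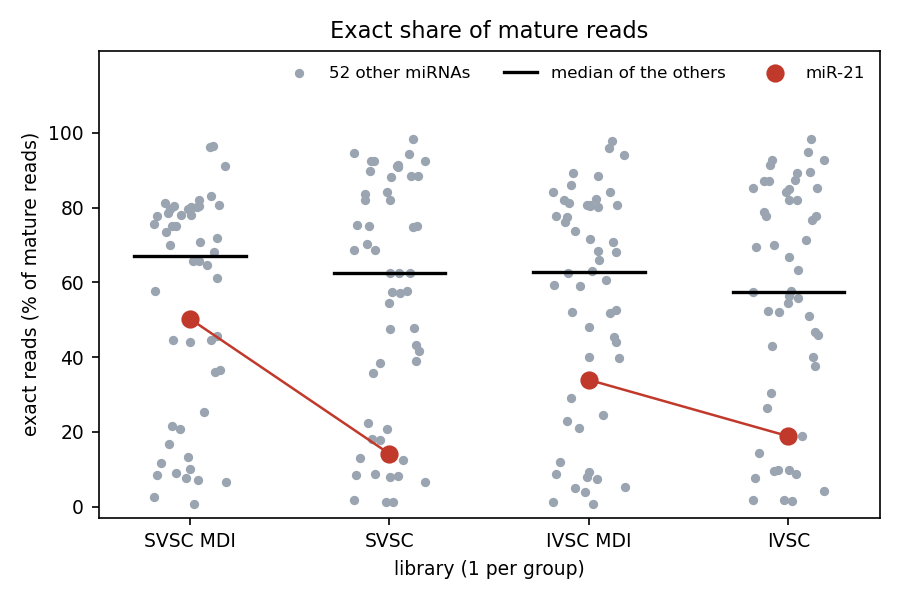
Each point is 1 miRNA in 1 library, with its exact reads as a percentage of its mature reads on the vertical axis. miR-21 (red, joined within each culture) stands at 50.3% in SVSC MDI and 14.1% in SVSC, and at 33.9% in IVSC MDI and 18.8% in IVSC, whereas the medians of the 52 other miRNAs (black bars) lie between 57.5% and 67.0%.

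Of the other miRNAs, miR-10a alone moved as far as miR-21, and only in SVSC, while several moved in the other direction. miR-10a, encoded in a HOX gene cluster, had an exact share of 78.1% in SVSC MDI and 38.4% in SVSC, but of 59.1% in IVSC MDI and 52.2% in IVSC. miR-23a, of the cluster it shares with miR-27a and miR-24, had 61.1% in SVSC MDI and 43.3% in SVSC. Its cluster partners went the other way: miR-27a had 75.5% in SVSC MDI and 94.7% in SVSC, and miR-24 had 44.7% in SVSC MDI and 62.6% in SVSC. In IVSC the gains next to that of miR-21 were those of miR-425 (11.3 points), miR-26a (10.3 points) and miR-151. The exact share of miR-186 was lower with MDI in both cultures, with changes of -10.3 points in SVSC and -14.5 points in IVSC. Even with its gain miR-21 stayed among the miRNAs with low exact shares, ranking from the top 33rd of 53 in SVSC MDI, 43rd in SVSC, 39th in IVSC MDI and 42nd in IVSC.

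**Figure D3:**
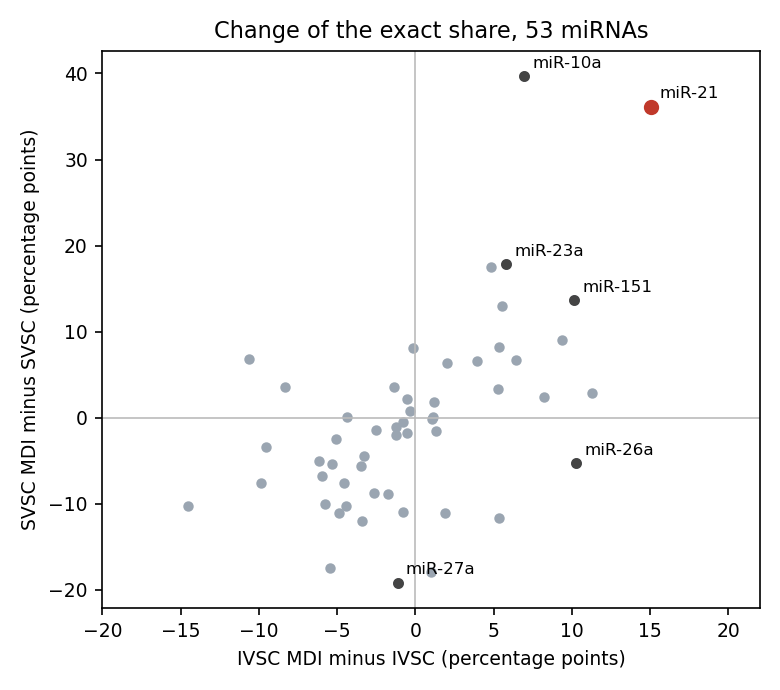
For each of 53 miRNAs the change of the exact share with MDI is plotted in percentage points, for IVSC on the horizontal axis and for SVSC on the vertical axis. miR-21 (red) is farthest right at 15.1 points and second from the top at 36.1 points, below miR-10a at 39.7.

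Set on the CPM scale, exact and variant miR-21 moved apart. Exact reads stood at 131397 CPM in SVSC MDI and 61889 CPM in SVSC, a ratio of 2.12 (2.11 to 2.13). They stood at 113344 CPM in IVSC MDI and 55461 CPM in IVSC, a ratio of 2.04 (2.04 to 2.05). Both pass 2-fold on miRNA reads, as did 55.9% of 102 miRNAs on their exact reads in SVSC and 34.6% of 104 in IVSC, counting both directions. The SVSC call was lost under 4 other scalings, with ratios of 1.50 to 1.61, and the IVSC call was lost with TMM, at 1.99. All scalings left both ratios above 1.

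Variant reads of miR-21 were lower with MDI in SVSC. They stood at 130073 CPM in SVSC MDI and 376326 CPM in SVSC, 2.89-fold lower with MDI (2.88 to 2.90). This call held under each of the 5 scalings and over mature reads of all miRNAs, with ratios from 0.244 to 0.428. In IVSC the variant reads stood at 220847 CPM with MDI and 239006 CPM without, a ratio of 0.924 (0.923 to 0.925). That ratio changes sides with the scaling, at 1.08 over all reads of the file. Of all miRNAs, 60.4% of 111 were called on variant reads in SVSC and 43.9% of 114 in IVSC. In SVSC the MDI minus undifferentiated difference was 69508 CPM for exact and -246253 CPM for variant reads. In IVSC it was 57883 CPM for exact and -18159 CPM for variant reads. The ratio of the MDI responses, SVSC over IVSC, was 1.04 (1.03 to 1.04) for exact reads when scaled to miRNA reads. It changed sides with the scaling, at 0.638 over all reads of the file, 0.743 without miR-21, 0.753 with TMM, 0.784 with DESeq2 size factors and 1.23 over mature reads of all miRNAs. For variant reads it was 0.374 (0.373 to 0.375), and 0.230 to 0.442 under the same 5 alternatives. These intervals hold no spread between cultures, so neither difference of the responses was tested.

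**Figure D4:**
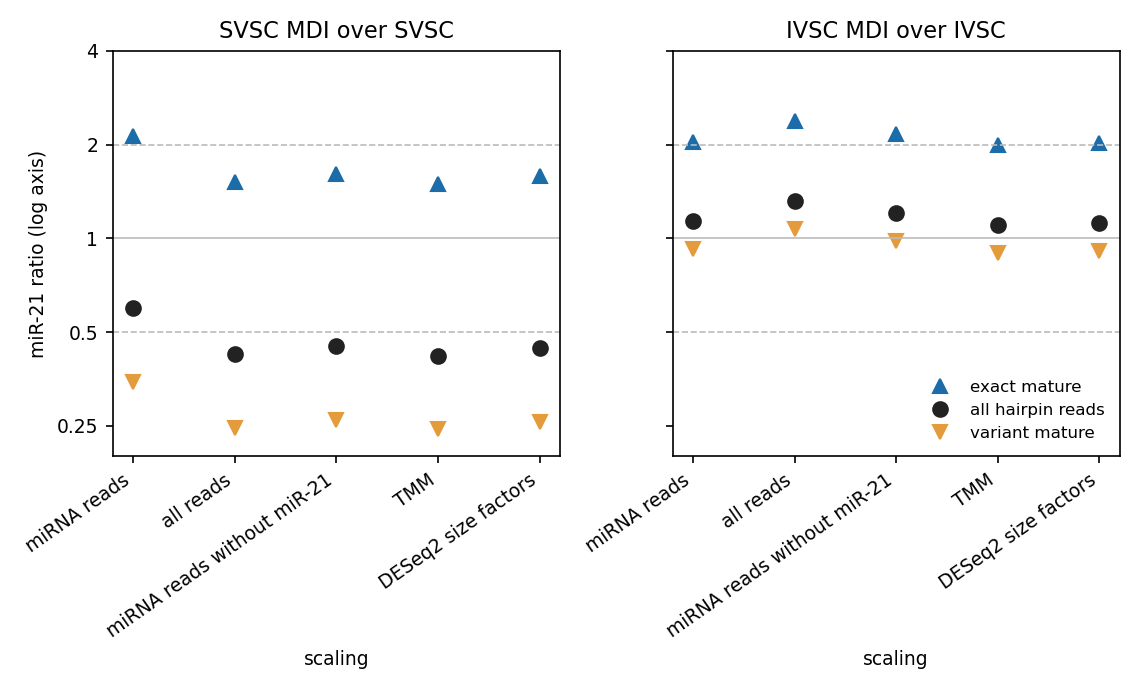
Points give the ratio of miR-21 with MDI over undifferentiated cells on a log axis, under 5 scalings, for exact mature reads (blue), all reads of the hairpin (black) and variant mature reads (orange). In SVSC (left) the exact ratio stays above 1 (1.50 to 2.12) and the variant ratio below 0.5 (0.244 to 0.346), while in IVSC (right) the exact ratio lies between 1.99 and 2.38 and the variant ratio near 1.

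miR-21 also set the make-up of the libraries' variant reads. Of all variant mature reads of a library, miR-21 supplied 59.9% in SVSC MDI, 85.6% in SVSC, 74.6% in IVSC MDI and 78.1% in IVSC. The next miRNA in each library supplied at most 7.98%, which was miR-378 in SVSC MDI. Counted on exact reads alone, miR-21 was first in SVSC MDI, SVSC and IVSC MDI. In IVSC it came second with 734972 exact reads, behind miR-378 with 1543460. Among exact reads of all miRNAs its share was 36.7% in SVSC MDI, 22.7% in SVSC, 39.1% in IVSC MDI and 18.0% in IVSC. On exact reads, then, both MDI libraries are richer in miR-21 than both undifferentiated ones, which is not the order given by total reads.

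Very few miR-21 reads lay outside the mature sequence. The rest of the hairpin held 3634 reads in SVSC MDI, 46680 in SVSC, 27999 in IVSC MDI and 18077 in IVSC. Per 1000 mature reads this is 5.40 in SVSC MDI, 5.94 in SVSC, 5.66 in IVSC MDI and 4.63 in IVSC. In SVSC the MDI value is the lower and in IVSC the higher, so the groups overlap. The median of the 52 other miRNAs was 18.2 to 33.4 per 1000, and miR-21 ranked 43rd to 51st of 53 from the top. The star column lists 0 reads for miR-21 in all 4 libraries. Only 9 hairpins in each file have any star read, and reads of an unannotated opposite arm would be counted on the rest of the hairpin.

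Within a library, the ratio of miR-21 to another miRNA needs no scaling total. Per read of miR-143, known from smooth muscle, there were 0.674 miR-21 reads in SVSC MDI, 1.72 in SVSC, 0.866 in IVSC MDI and 0.845 in IVSC. Per read of miR-378, which lies in an intron of the PGC-1β gene, there were 2.97 in SVSC MDI, 6.73 in SVSC, 5.23 in IVSC MDI and 2.26 in IVSC. Per read of miR-148a there were 6.11 in SVSC MDI, 26.6 in SVSC, 11.1 in IVSC MDI and 6.65 in IVSC. SVSC is the highest of the 4 for each of these 3 partners, but the lowest for let-7a and miR-30d. Per read of let-7a there were 12.6 in SVSC MDI, 9.62 in SVSC, 22.3 in IVSC MDI and 18.3 in IVSC. Per read of miR-30d there were 67.8 in SVSC MDI, 47.6 in SVSC, 51.8 in IVSC MDI and 64.7 in IVSC. Of the 10 most abundant other miRNAs, 7 gave a higher ratio in SVSC than in IVSC and 3 a lower one. For let-7f, a member of a family linked to differentiation, the ratios were 6.87 in SVSC MDI, 9.20 in SVSC, 9.50 in IVSC MDI and 9.70 in IVSC, close to each other apart from SVSC MDI.

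In SVSC, miR-21 was lower with MDI relative to 8 of the 10 most abundant other miRNAs, by at least 2-fold against 6 of them. The median of the 10 ratio changes was 0.416. It was 16.8-fold lower relative to miR-10b, which had 39867 reads in SVSC MDI and 27732 in the far deeper SVSC, and 4.36-fold lower relative to miR-148a and 4.10-fold relative to miR-23a. Relative to let-7a and miR-30d it was 1.31-fold and 1.43-fold higher. In IVSC the 10 changes had a median of 1.04 and ran from 0.644 against miR-10b to 2.31 against miR-378. Here 6 lay above 1 and 4 below, and that against miR-378 alone passed 2-fold. Against miR-143 the 2-fold difference in SVSC did not hold on mature reads (0.543, beside 0.391 on total reads). The change against miR-30e on mature reads turned round in both cultures, at 2.07 in SVSC and 0.941 in IVSC, beside 0.812 in SVSC and 1.05 in IVSC on total reads.

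**Figure D5:**
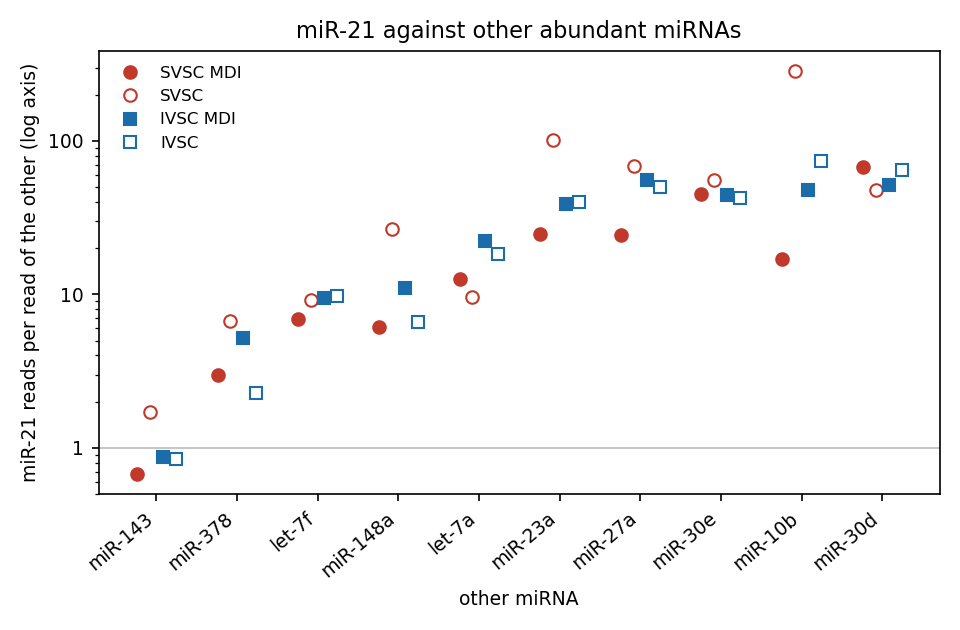
The vertical log axis gives miR-21 reads per read of each of the 10 most abundant other miRNAs, with SVSC in red, IVSC in blue, MDI filled and undifferentiated open. The open red circle of SVSC is above the filled one of SVSC MDI for 8 of 10 miRNAs, most of all for miR-10b (17.0 in SVSC MDI and 285.1 in SVSC). The IVSC squares lie closer together for each miRNA but miR-378 (5.23 in IVSC MDI and 2.26 in IVSC).

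Without MDI miR-21 was higher in SVSC than in IVSC and with MDI lower, in neither case by 2-fold. It had 440817 CPM in SVSC and 295831 CPM in IVSC, a ratio of 1.49 (1.49 to 1.49), in a pair where 28.4% of 148 miRNAs were called, 11 higher and 31 lower (28 and 24 with DESeq2 size factors). Its exact reads had a ratio of 1.12 (1.11 to 1.12), which was 0.963 over mature reads of all miRNAs and up to 1.44 under the other scalings. Its variant reads had a ratio of 1.57 (1.57 to 1.58), which passed 2-fold with TMM (2.00) and DESeq2 size factors (2.03). With MDI it had 262881 CPM in SVSC MDI and 336082 CPM in IVSC MDI, a ratio of 0.782 (0.780 to 0.784), where 27.9% of 147 miRNAs were called, 26 higher and 15 lower (7 and 29 when scaled to all reads of the file). The SVSC MDI over IVSC MDI ratio of exact reads was 1.16 (1.15 to 1.16), and it turned to 0.809 over all reads of the file and to 0.938 for the exact reads over all exact reads. That of variant reads was 0.589 (0.587 to 0.591), and 0.411 to 0.600 under the alternatives. The exact share differed by -4.71 points between SVSC and IVSC. It was 16.3 points higher in SVSC MDI than in IVSC MDI, where miR-10a alone of 53 miRNAs had a larger difference.

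Among 81 other miRNAs at 100 CPM or more in every library, 5 were closest to miR-21 in their pattern over the 4 libraries. Likeness was the root mean square difference of centred log2 CPM, which was 0.60 for the median miRNA. It was 0.15 for miR-30e, 0.16 for let-7g, 0.19 for miR-24, 0.20 for let-7f and 0.21 for miR-30d. With 4 points that share the libraries' totals this is a description. miR-30e had 5826 CPM in SVSC MDI, 7936 in SVSC, 7592 in IVSC MDI and 6996 in IVSC, so SVSC was highest and SVSC MDI lowest as for miR-21. These are total reads of the hairpin. Only 4140 of the 14992 miR-30e reads in SVSC MDI were mature, beside 100215 of 142355 in SVSC, so the likeness need not hold on mature reads. miR-30d, the fifth, had 3876 CPM in SVSC MDI and 9264 in SVSC.

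Lists of miRNAs linked to the biology of miR-21 did not move as one. Of 11 miRNAs linked to cell growth, 10 were compared. In SVSC 4 rose with MDI, namely miR-19a, miR-19b and miR-92a of the miR-17-92 clusters and the hypoxia-induced miR-210. Also of these clusters, miR-17 and miR-20a fell, so their members split. The median log2 ratio of the list was 0.01, beside 0.41 over all 146 miRNAs. Over all miRNAs of this pair 34.2% were called higher and 21.9% lower, so 6 of 10 members called is near the overall 56.2%. In IVSC miR-210 rose 4.84-fold while miR-20a and miR-221, a repressor of cell cycle inhibitors, fell (median -0.39, beside -0.04 over 152). Here 3 of 10 were called, beside 40.1% of all miRNAs (16.4% higher and 23.7% lower). Across the 5 scalings the calls of miR-92a, miR-210, miR-17 and miR-20a held in SVSC and those of miR-210 and miR-221 in IVSC. Relative to miRNA reads, the 4 other scalings shifted every log2 ratio in SVSC by -0.50 to -0.40, and the median of the growth list there went as low as -0.49.

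Of 11 miRNAs linked to TGF-β and fibrosis, 4 rose in SVSC and none fell, namely miR-145, miR-199a, miR-199b and miR-29c (median 0.84, beside 0.41 over all). The 4 of 11 called higher are near the 34.2% of all miRNAs called higher there. In IVSC miR-145 and miR-181a rose and miR-214 fell (median 0.39, beside -0.04 over all), which is 3 of 11 beside 40.1% of all miRNAs called. miR-145, known to promote contractile smooth muscle, rose 8.31-fold in SVSC and 5.30-fold in IVSC, and its call held under every scaling. The other SVSC calls were lost under at least 1 scaling. In IVSC the call of miR-181a also held and that of miR-214 did not. miR-199a, whose processing is promoted by SMADs as is that of miR-21, had 4594 CPM in SVSC MDI and 2127 in SVSC, and 3488 CPM in IVSC MDI and 3591 in IVSC. Of 6 miRNAs linked to AP-1, STAT3 or NF-κB, miR-146b rose in both cultures, 3.23-fold in SVSC and 7.83-fold in IVSC, and miR-221 fell in IVSC. This is 1 of 6 called in SVSC, beside 56.2% of all miRNAs, and 2 of 6 in IVSC, beside 40.1%. The list's median was 0.50 in SVSC, beside 0.41 over all, and 0.20 in IVSC, beside -0.04. These calls held under all 5 scalings. miR-155, which lies in this list and in both others, had ratios of 0.800 in SVSC and 0.872 in IVSC.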

How the data were processed

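Per the file headers, the deposited values are read counts per feature of 4 resources (Sus scrofa hairpins, Ensembl non-coding RNAs, piRNAs and Rfam), split into exact mature, mature, star and other reads. For SVSC, 1 deposited column (mature reads that match nowhere else) has 1 damaged Rfam value and is recorded as a score; its hairpin entries are whole counts, and only those were used. Entries without a resource were left out, 1 in SVSC MDI and 3 in SVSC. The submitters' processing notes name mm9 without a role. Not given in the sources used here are the aligner, the mismatches allowed and the way of trimming.

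Copies of a hairpin were counted once (the largest copy plus uniquely matching reads of the others), and mir-18 and mir-20 were renamed miR-18a and miR-20a. Exact shares use the largest copy. A pair of libraries was compared over miRNAs that reached 10 CPM in either, with Clopper-Pearson intervals (SciPy 1.17.1, Python 3.11.15, pandas 2.3.3, NumPy 2.4.6). The intervals of differences of shares, odds and ratios of ratios are normal approximations. TMM came from edgeR 4.0.16 and size factors from DESeq2 1.42.0 (R 4.3.3). Where no read was found, up to 3 reads are allowed for, which is 1.17 CPM in SVSC MDI, 0.167 in SVSC, 0.203 in IVSC MDI and 0.226 in IVSC. The intervals were checked on simulated counts that held counting error alone. That check cannot speak to PCR copies or to the spread between cultures.

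The miRNA and the lists were chosen with earlier results of these data known. The named miRNAs are miR-21, its 10 most abundant partners, the 5 of most similar pattern and list members; miRNAs with large changes of the exact share were named after their values were seen. Seeds were not compared and no sequence is printed, since no miRNA sequences were used here.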

Additional observations from a re-analysis of the deposited data

Results flagged for a closer look

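The MDI response of miR-21 went in opposite directions in the cultures, with a ratio of 0.596 in SVSC and 1.14 in IVSC and a ratio of the responses of 0.525. With 1 library in each group, each of these ratios rests on 1 library with MDI and 1 without, and the difference was not tested.

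The Rfam resource, which the comparisons above do not use, lists 7 entries of the mir-21 family, all of whose reads are exact matches. The entry with the most reads held 16 in SVSC MDI and 31 in SVSC, and 61 in IVSC MDI and 30 in IVSC. Per 1000000 miRNA reads this is 6.22 in SVSC MDI and 1.73 in SVSC, and 4.12 in IVSC MDI and 2.26 in IVSC. These values are higher with MDI in both cultures, but they rest on few reads and no interval was computed. These reads amount to at most 0.00237% of the miR-21 reads of a library.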

How the results depend on the processing

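With 1 library in each group no replicate could be left out. For the same reason no paired analysis was possible, and the labels carry no replicate numbers. For SVSC MDI, SVSC, IVSC MDI and IVSC in that order, miR-21 made up 13.1%, 30.7%, 24.0% and 18.2% of all reads of the file, 45.4%, 61.5%, 57.0% and 47.9% of mature reads, 36.7%, 22.7%, 39.1% and 18.0% of exact mature reads, and 23.8%, 40.8%, 31.2% and 25.9% with copies summed. It had 35.7, 78.8, 50.6 and 42.0 reads per 100 other miRNA reads, and 75.8, 145.3, 121.8 and 83.5 when miR-143 was left out as well. The SVSC ratio was 0.426 over all reads, 0.452 without miR-21, 0.420 with TMM and 0.444 with DESeq2 size factors. It was 0.738 on mature reads over all mature reads, and turned to 1.61 on exact mature reads over all exact reads. The IVSC ratio was 2.17 on exact reads. The ratio of the responses was 0.322 over all reads, 0.375 without miR-21, 0.358 without miR-21 and miR-143, 0.380 with TMM, 0.396 with DESeq2 size factors and 0.484 with copies summed. It was weaker on mature reads, at 0.621, and on exact mature reads, at 0.743. Alternatives for exact and variant reads were chosen after seeing the data. The exact ratio in SVSC was 1.52 over all reads, 1.61 without miR-21, 1.50 with TMM and 1.58 with DESeq2 size factors, and in IVSC 1.99 with TMM. The variant ratio in IVSC was 1.08 over all reads. Relative to miR-30e on mature reads, the changes were 2.07 in SVSC and 0.941 in IVSC. Both ratios between origins kept their direction and stayed short of 2-fold under all 8 alternatives, and the counts of miRNAs past 2-fold stayed within 1.5 times in every setting run. The number of miRNAs whose exact share moved, 16 in SVSC and 6 in IVSC at 10 points, was 33 and 24 at 5 points and 2 and 0 at 20 points. All mature miR-21 reads match uniquely, so an exact share taken on uniquely matching reads is the same number and no separate check. The exact share gain of miR-21 in IVSC ranked first also with a lower and a higher minimum of mature reads.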
